A study of Mus musculus with 36 samples.

Results

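Intestinal organoids exposed to 9-cis retinoic acid (9cisRA, 10 µM) for 24 h were compared with organoids exposed to it for 6 h. The comparison was set by the library labels alone, 4 libraries at 24 h against 4 at 6 h, which is 8 of the 36 libraries in the series, and it covers all 12652 genes of the table, of which 11361 passed a filter on low values and were tested. Organoids are hollow epithelial cultures that grow from intestinal stem cells and form the cell types of the gut lining. Both cultures used here came from male wild-type C57BL/6 littermates of 8 weeks, 1 mouse per culture, with no transgene, and RNA was purified in duplicate from 3 pooled wells. The other conditions used were 24 h and 6 h with all-trans retinoic acid (atRA, 10 µM), 24 h and 6 h with the vehicle DMSO, and untreated cultures at 0 h. In every condition, single cells had first grown for 3 days with Wnt3a-conditioned medium, the ROCK inhibitor Y-27632 and the GSK3 inhibitor CHIR99021. Compound or vehicle was added as these were withdrawn, so time with 9cisRA is also time since the withdrawal, and the change over the same hours with DMSO was tested against it.

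Retinoic acid acts through nuclear receptors that bind DNA in pairs. The all-trans form binds the retinoic acid receptors (RAR), and the 9-cis form binds these and the retinoid X receptors (RXR). RXR is also the shared partner of the fatty acid receptors PPAR, the bile acid receptor FXR and the oxysterol receptor LXR, whose target genes in the intestine burn and store fat, signal bile acid uptake and export sterols. Cells of the crypt divide and then mature on their way to the villus, where enterocytes absorb nutrients.

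Levels are RPKM, a read count corrected for gene length and sequencing depth, and changes are differences of log2(RPKM + 0.5) given ± SE, a scale that understates changes of genes with low RPKM. Duplicates were averaged per mouse, so n = 2 mice throughout, and means are given ± SD over the mice. Values of single libraries are listed as mouse 1 duplicates 1 and 2, then mouse 2 duplicates 1 and 2. A gene was called at an adjusted p below 0.05 (limma, Benjamini-Hochberg over all tested genes), and "rose" and "fell" are used of called genes only. Depth was 25.4 to 29.6 M reads per library at 24 h with 9cisRA and 25.4 to 29.99 M at 6 h. Duplicates of a culture correlated at 0.9949 or more across genes and none were identical. Epithelial markers fitted the label, with 885 to 974 RPKM of the brush border phosphatase Alpi at 24 h and 167 to 205 RPKM at 6 h. The collagen, pan-leukocyte and endothelial markers chosen for other cell types were not analysed here, apart from 2 of the 5 leukocyte genes, Lyz2 (0.946 to 1.94 RPKM at 24 h and 0.417 to 0.739 RPKM at 6 h) and Csf1r (0.584 to 1.06 RPKM at 24 h and 0.96 to 1.53 RPKM at 6 h). In such bulk samples fewer cells of a type and less RNA per cell cannot be told apart.

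Between 6 h and 24 h with 9cisRA, transcripts of absorptive enterocytes rose steeply while transcripts of dividing cells fell, and the rises were larger than the falls. The test called 3466 genes higher at 24 h, 30.5% of those tested, and 3502 lower, 30.8%. Of these, 635 were higher by at least 2-fold and 124 lower by as much. All but 3 of the 6968 called genes moved the same way in both mice. Scaling moved the split: quantile normalization gave 2799 higher and 4348 lower, and scaling by read sums gave 2207 higher and 5789 lower with a median of all genes of -0.19 log2. The median was -0.02 log2 under the deposited scaling.

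The 12 largest rises included those of Reg3a, the highest at 5.29 ± 0.29 log2, and Reg1 at 4.51 ± 0.16, secreted lectin-type proteins. Apoa4, an apolipoprotein of chylomicrons (chromosome 9, 46240844 to 46243458, RefSeq on GRCm38.p6), stood at 1045, 967, 1489 and 1317 RPKM at 24 h, against 37.8, 36.04, 50.6 and 57.2 RPKM at 6 h. Every library at 24 h lay far above every library at 6 h, and the rise was 4.72 ± 0.23 log2 (adjusted p = 1.82e-09). Adh1, an alcohol dehydrogenase that also oxidizes retinol, stood at 599, 512, 909 and 911 RPKM at 24 h, against 21.9, 19.8, 26.1 and 30.5 RPKM at 6 h, again without overlap (4.84 ± 0.17 log2, adjusted p = 2.57e-10). The rest of the 12 were the goblet cell lectin Zg16, the dipeptidase Dpep1, the glucuronosyltransferase Ugt2b5, Apoa1, the peptide hormone Leap2, the arginase Arg2, the glutamyltransferase Ggt1 and the alcohol dehydrogenase Adh4, at 3.82 to 4.50 log2.

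The falls were smaller, from -1.35 to -1.68 log2 in the 12 that led them. Among them were genes of mitosis and its entry: the kinetochore protein Ndc80 (-1.49 ± 0.11), the phosphatase Cdc25b (-1.36 ± 0.054), the spindle protein Dlgap5 (-1.36 ± 0.064) and the proliferation marker Mki67 (-1.35 ± 0.066). Ankle1, a DNA-cutting enzyme, fell by 1.48 ± 0.11 on the log2 scale. Cyp2w1, a cytochrome P450, had the largest fall (-1.68 ± 0.13), with 0.399, 0.550, 0.423 and 0.374 RPKM at 24 h and 2.84, 3.40, 2.06 and 1.90 RPKM at 6 h. Lockd, a long noncoding RNA, followed at -1.65 ± 0.11. The others were Mal, Anxa8, Cyp1a1, Tnni2 and 2700099C18Rik.

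Much of this course was shared with vehicle. With DMSO, 2882 genes were higher at 24 h than at 6 h (25.4% of those tested) and 2785 lower (24.5%). Of the 9cisRA calls, 4327 were also called with DMSO in the same direction, which is 62.1% of the 9cisRA calls and 76.4% of the DMSO calls. A further 103 genes were called in opposite directions. The changes with 9cisRA and DMSO, which share no library, correlated at 0.883 across genes, and genes are not independent replicates. Whether the time change itself differed was tested directly: 1142 genes had a higher time change with 9cisRA than with DMSO (10.1% of those tested) and 898 a lower one (7.90%), 29 and 13 of them by at least 2-fold. Of the 1142, 773 rose with 9cisRA, and of the 898, 761 fell. With scaling to read sums the split was 557 higher and 2218 lower, so a small difference in a single gene can change sides with the scaling.

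**Figure D1:**
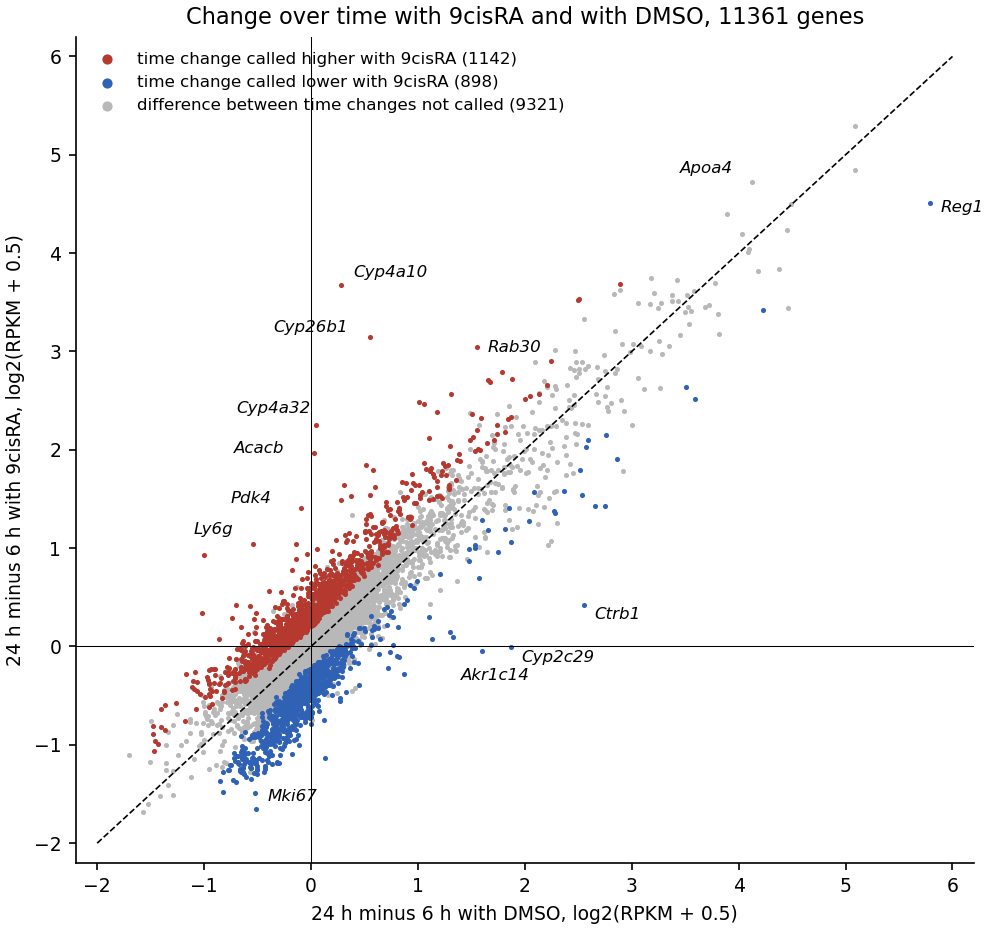
Each point is a gene, placed by its change from 6 h to 24 h with DMSO (x axis) and with 9cisRA (y axis), both in log2(RPKM + 0.5), with the dashed line marking equal changes. Most genes lie near the line, 1142 called above it (red) and 898 called below it (blue), with Cyp4a10, Cyp26b1 and Cyp4a32 farthest above and Ctrb1, Cyp2c29 and Akr1c14 farthest below.

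Enterocyte markers rose in full. All 41 tested members rose with 9cisRA, with a median of 2.66 log2, against a median of -0.02 over all tested genes. With DMSO 40 of the 41 rose, with a median of 2.74. The time change of 8 of the 41 differed between 9cisRA and DMSO, all higher with 9cisRA. Over all tested genes 10.1% had a higher time change. Among the 8 were the villin gene Vil1 (difference 0.31 ± 0.068) and adenosine deaminase Ada (0.59 ± 0.10). With quantile normalization and with read-sum scaling 4 of the 41 differed, and Vil1 was not called under either (0.091 and 0.19). Rbp2, the retinol-binding protein of enterocytes, rose by 3.48 ± 0.11 with 9cisRA. Its mean was 3519 ± 680 RPKM at 24 h and 317 ± 82.6 RPKM at 6 h.

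Brush border enzymes, which digest sugars and peptides at the cell surface, rose in all 15 tested members with 9cisRA (median 2.52) and with DMSO (median 2.78). Sucrase-isomaltase Sis stood at 205, 166, 227 and 270 RPKM at 24 h, against 17.0, 14.1, 21.9 and 30.7 RPKM at 6 h, a rise of 3.38 ± 0.18 log2. The phosphatase Alpi rose by 2.31 ± 0.11, more than with DMSO (difference 0.47 ± 0.15, adjusted p = 0.0459), though the call was lost without any 1 of 6 libraries (0.41 to 0.47), with quantile normalization (0.18) and with read-sum scaling (0.35). The endopeptidase Mme was the other member whose time change differed. It stood at 3.11, 2.54, 3.88 and 4.63 RPKM at 24 h with 9cisRA and 0.197, 0.148, 0.177 and 0.243 RPKM at 6 h, and its means with DMSO were 9.97 ± 4.03 RPKM at 24 h and 0.348 ± 0.204 RPKM at 6 h. Its rise was therefore the smaller one with 9cisRA (difference -1.07 ± 0.24, adjusted p = 0.0104), a call lost with a pseudocount of 0.1 (-0.89).

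Chylomicron genes, which package dietary fat for export, rose at 21 of 22 tested with 9cisRA and 1 fell (median 1.79, against 1.45 with DMSO). The time change was higher with 9cisRA for 6 of the 22 and lower for none. Shares over all tested genes were 30.5% higher with 9cisRA and 10.1% with a higher time change. The lipoprotein lipase activator Apoc2 stood at 494, 459, 713 and 637 RPKM at 24 h with 9cisRA, against 49.2, 50.8, 47.4 and 47.4 RPKM at 6 h. Its rise of 3.53 ± 0.15 log2 was 1.02 ± 0.21 above that with DMSO. The fatty acid binding protein Fabp2 gave a difference of 0.65 ± 0.11 and the droplet coat protein Plin3 0.53 ± 0.068. With quantile normalization 3 of the 22 had a higher time change, and Fabp2 was not called (0.35, adjusted p = 0.0505). The member that fell was Apoe, which is also an LXR target.

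Most structural genes of the microvillus, which build the actin core and the links between the tips, also rose. Of 20 tested, 17 rose and 2 fell with 9cisRA (median 0.71), and 15 had a higher time change than with DMSO, none a lower one (median difference 0.36, against 0.00 over all genes). Tmigd1, an adhesion protein of the brush border, stood at 15.7, 14.9, 21.0 and 21.4 RPKM at 24 h with 9cisRA, against 5.25, 5.70, 8.70 and 8.29 RPKM at 6 h. The groups did not overlap, and its rise exceeded that with DMSO by 0.81 ± 0.14 log2 (adjusted p = 0.00286). The actin-capping protein Eps8 (0.42 ± 0.065), the tip-link cadherin Cdhr2 (0.52 ± 0.087) and the myosin Myo1d (0.41 ± 0.074) also had larger rises than with DMSO. With quantile normalization the Myo1d difference was 0.27 and 8 of the 20 had a higher time change, and with read-sum scaling 10 were higher and 1 lower.

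**Figure D2:**
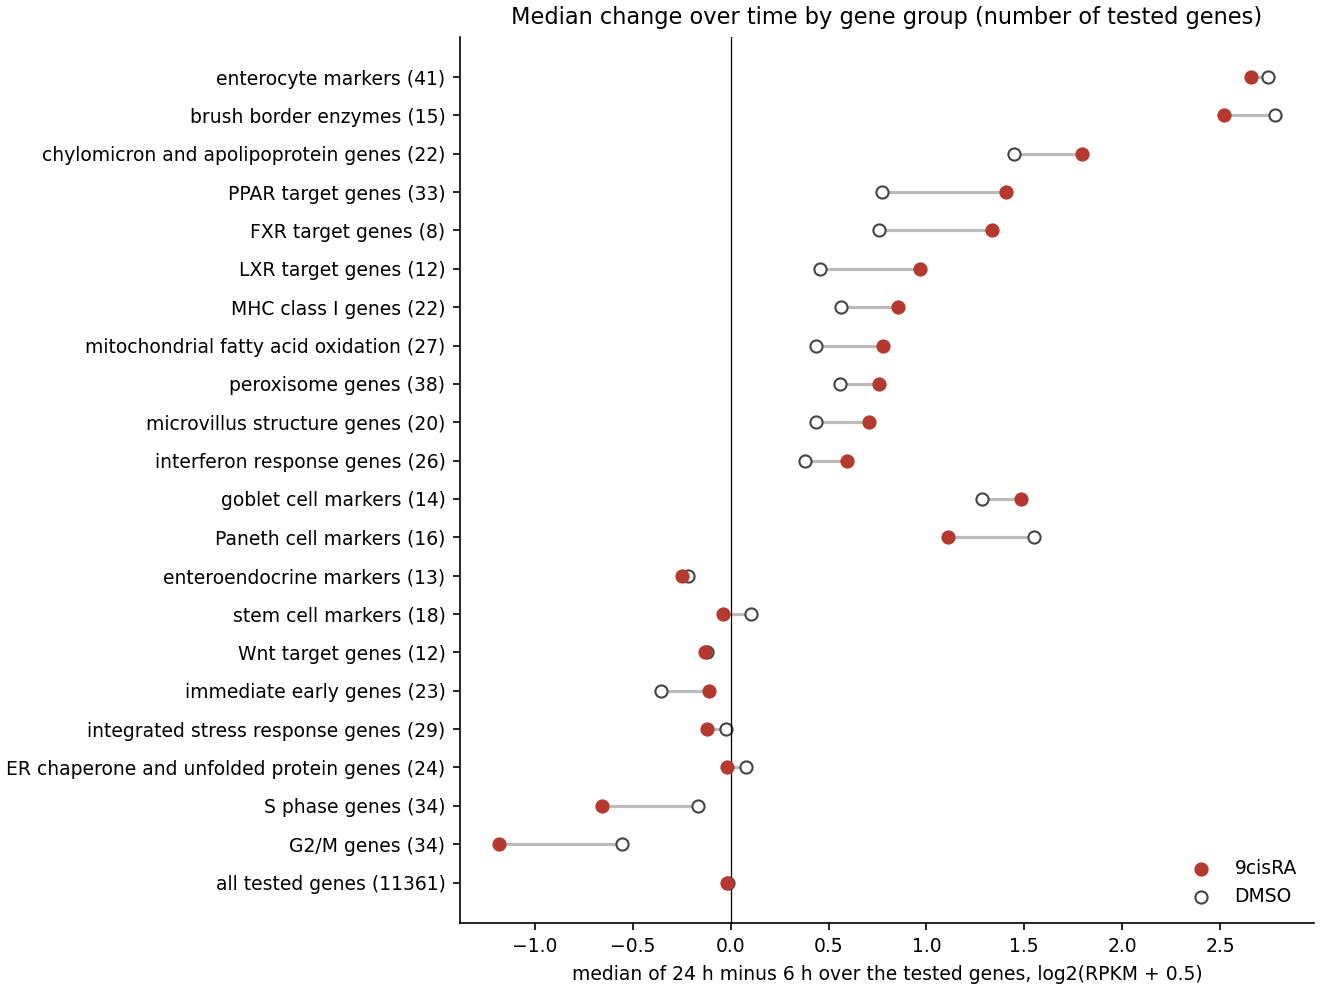
Points give the median change from 6 h to 24 h over the tested genes of each group, in log2(RPKM + 0.5), with 9cisRA filled and DMSO open. The G2/M median lies at -1.18 with 9cisRA and -0.56 with DMSO, and the enterocyte median at 2.66 with 9cisRA and 2.74 with DMSO.

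Markers of secretory cells rose with both treatments. Goblet cell markers rose at 10 of 14 with 9cisRA (median 1.48) and none differed from DMSO. Muc2, the main gut mucin, stood at 2.58, 2.64, 3.14 and 2.36 RPKM at 24 h and at 0.155, 0.329, 0.369 and 0.254 RPKM at 6 h, a rise of 2.04 ± 0.11. Of 16 Paneth cell markers, 13 rose and 1 fell (median 1.11, against 1.55 with DMSO), with the defensin Defa17 at 2.08 ± 0.28. Defensin genes are near-identical copies, so reads may be split among them. The colipase Clps and the pentraxin Mptx1 had lower time changes with 9cisRA than with DMSO (differences -1.15 ± 0.33 and -0.88 ± 0.27). Without 1 library the Clps difference was -0.98 and the Mptx1 difference -0.79 to -0.70, and neither was then called. Neither call held with a pseudocount of 0.1 (-1.46 for Clps and -1.48 for Mptx1). Of 5 Reg family genes, 4 rose and 1 fell, and Reg1 and Reg3b rose less than with DMSO.

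Of 13 enteroendocrine markers tested, 5 fell and 2 rose with 9cisRA (median -0.25), which for the falls is near the 30.8% of all tested genes. The incretin gene Gip stood at 14.0, 18, 9.12 and 4.56 RPKM at 24 h and at 34.9, 29.5, 13.7 and 17.7 RPKM at 6 h, a fall of 1.10 ± 0.16 on the log2 scale. The highest library at 24 h and the lowest at 6 h overlapped, since mouse 1 was above mouse 2 at both times. Cck (-1.11 ± 0.18), Gcg (-0.76 ± 0.21) and Chga (-0.79 ± 0.12) also fell. Without mouse 1 the change of Cck was -0.73 and that of Gcg was -0.28, which was not called (adjusted p = 0.228). Of 3 tested tuft cell markers, 1 rose, Ltc4s. Of 18 stem cell markers, 3 rose and 2 fell, and of 12 Wnt target genes 2 rose and 4 fell. Over all tested genes 30.5% rose and 30.8% fell, so the falls of Wnt target genes were near that share. Axin2 was at -0.04 ± 0.068 (adjusted p = 0.584) and Ascl2 at -0.17 ± 0.15 (adjusted p = 0.336). Axin2 was called with read-sum scaling (-0.21) and Ascl2 without mouse 2 (-0.43). Olfm4 was the exception among stem cell markers, at 8.91, 6.96, 7.29 and 7.56 RPKM at 24 h and 1.39, 1.21, 2.49 and 2.77 RPKM at 6 h (1.78 ± 0.26 log2). With DMSO it reached 21.8 ± 1.73 RPKM at 24 h, and the difference of -1.14 ± 0.37 fell just outside the threshold (adjusted p = 0.0501) and was called with read-sum scaling (-1.25), among other settings.

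Cell division genes fell more with 9cisRA than with vehicle. All 34 tested G2/M genes, which serve mitosis, fell with 9cisRA (median -1.18). All 34 also fell with DMSO (median -0.56) and with atRA (median -1.10). The fall was larger with 9cisRA than with DMSO in all 34, and 33 of these differences were called (median difference -0.60). Top2a, the topoisomerase that untangles chromosomes, stood at 43.8, 39.7, 29.5 and 37.9 RPKM at 24 h with 9cisRA and at 92.6, 96.6, 85.6 and 85.2 RPKM at 6 h. With DMSO its mean was 61.4 ± 2.65 RPKM at 24 h and 87.2 ± 1.44 RPKM at 6 h. All 24 h libraries with 9cisRA thus lay below all 24 h DMSO libraries, while the 6 h groups lay close together, and the difference between the time changes was -0.75 ± 0.081 log2 (adjusted p = 0.000175). Mki67 (chromosome 7, 135689784 to 135716450) stood at 26.6, 25.5, 19.8 and 22.2 RPKM at 24 h with 9cisRA and at 58.7, 66.1, 56.8 and 59.6 RPKM at 6 h. It averaged 39.5 ± 1.52 RPKM at 24 h with DMSO and 58.5 ± 1.48 RPKM at 6 h, and the difference was -0.79 ± 0.093 (adjusted p = 0.000348). Mitotic kinase Nek2 and spindle protein Tpx2 gave -0.62 ± 0.059 and -0.68 ± 0.074.

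S phase genes, which copy the DNA, fell less than G2/M genes and showed the same kind of difference. Of 34 tested, 29 fell and none rose with 9cisRA (median -0.66), against 16 lower and 2 higher with DMSO (median -0.17). For 28 the time change was lower with 9cisRA than with DMSO. With atRA 30 fell and none rose (median -0.55). The replicative helicase subunit Mcm6 stood at 35.6, 33.3, 28.7 and 31.6 RPKM at 24 h with 9cisRA and at 56.6, 54.97, 52.2 and 49.5 RPKM at 6 h, while its mean with DMSO was 50.6 ± 2.61 RPKM at 24 h and 56.9 ± 2.41 RPKM at 6 h. The difference was -0.55 ± 0.071 log2 (adjusted p = 0.000535). The ribonucleotide reductase subunits Rrm1 and Rrm2 gave differences of -0.61 ± 0.073 and -0.59 ± 0.097. The 5 S phase genes not called with 9cisRA were Ccne1, Cdca7, Cdt1, Pcna and Ung.

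**Figure D3:**
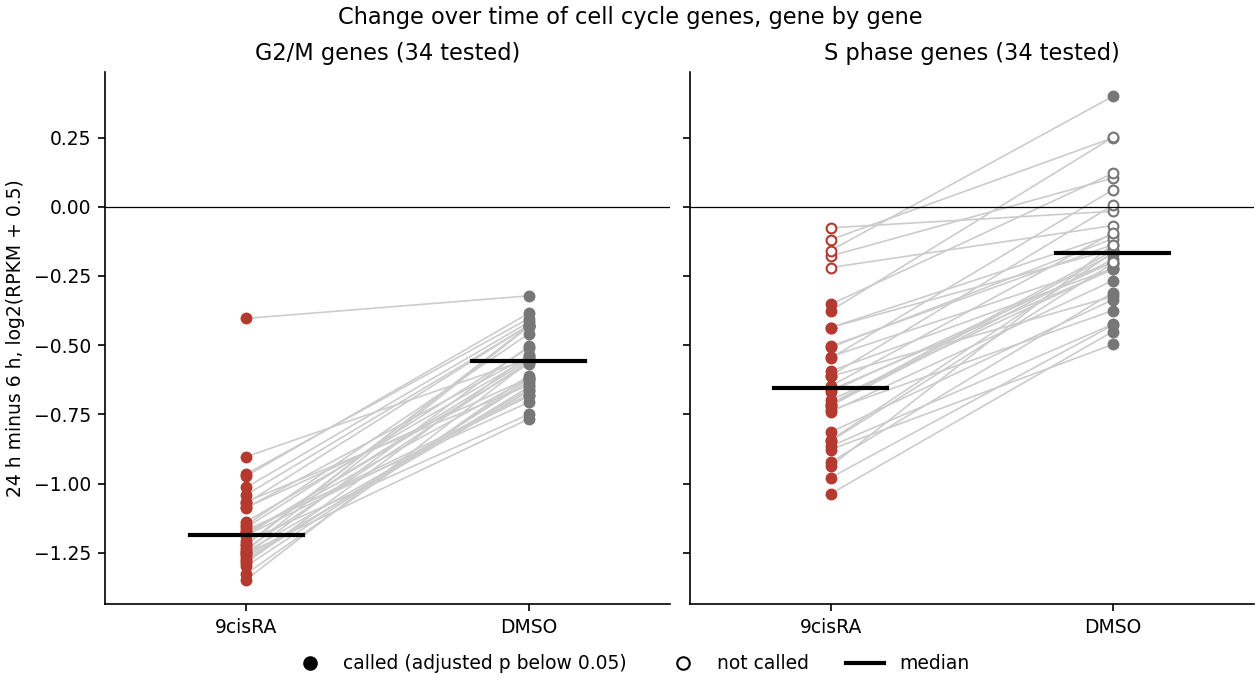
Each line joins the change of 1 gene from 6 h to 24 h with 9cisRA and with DMSO, in log2(RPKM + 0.5), for 34 G2/M genes and 34 S phase genes, with filled points called and bars at the medians. The G2/M medians are -1.18 with 9cisRA and -0.56 with DMSO, and the S phase medians are -0.66 with 9cisRA and -0.17 with DMSO.

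Genes of mitosis are known to carry a short element, TTTGAA, near their start, often with CCAAT boxes upstream, through which they are repressed as cells leave the cycle. Windows from 250 bases before to 50 bases after the start (RefSeq, GRCm38.p6) were at hand for 9088 of the tested genes and 29 of the 34 G2/M genes. Both motifs, searched on both strands, stood in 1 window in 21 of the 29 (72.4%), against 6.08% of all windows and 7.14% of 28 S phase windows. TTTGAA alone stood in 79.3% of the G2/M windows and 14.4% of all windows, and CCAAT in 86.2% and 43.7%. The 2 motifs do not overlap each other. A match is a description of letters and does not show that a factor binds. The 3 windows shown are those of G2/M genes with a small p for the difference from DMSO (limma) whose window held both motifs. The presence of both motifs in them was thus fixed by the choice. The transcripts of these 3 genes fell by 1.18 to 1.35 log2. TTTGAA and CCAAT on either strand are in capitals.
Top2a, chr11:99024140-99024439, minus strand: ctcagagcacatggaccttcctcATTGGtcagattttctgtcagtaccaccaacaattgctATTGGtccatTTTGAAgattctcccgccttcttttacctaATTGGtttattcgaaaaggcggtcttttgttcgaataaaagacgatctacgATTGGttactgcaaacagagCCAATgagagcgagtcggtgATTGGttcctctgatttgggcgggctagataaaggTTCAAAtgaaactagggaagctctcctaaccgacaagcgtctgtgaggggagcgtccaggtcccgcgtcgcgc
Cenpa, chr5:30666636-30666935, plus strand: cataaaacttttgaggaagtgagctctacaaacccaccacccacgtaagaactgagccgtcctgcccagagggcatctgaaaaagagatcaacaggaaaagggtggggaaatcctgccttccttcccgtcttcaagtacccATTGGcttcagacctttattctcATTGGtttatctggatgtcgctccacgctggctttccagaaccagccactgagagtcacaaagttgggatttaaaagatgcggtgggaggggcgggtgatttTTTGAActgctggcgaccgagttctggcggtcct
Mki67, chr7:135716330-135716629, minus strand: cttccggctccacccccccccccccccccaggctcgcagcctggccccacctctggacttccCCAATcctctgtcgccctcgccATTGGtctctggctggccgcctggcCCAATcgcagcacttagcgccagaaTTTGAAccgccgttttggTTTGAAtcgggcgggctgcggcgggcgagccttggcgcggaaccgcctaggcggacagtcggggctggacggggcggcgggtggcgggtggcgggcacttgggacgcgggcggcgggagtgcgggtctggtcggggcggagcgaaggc

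The Top2a window held 6 CCAAT matches and 2 TTTGAA matches, the Mki67 window 3 and 2, and the Cenpa window 2 and 1. Cenpa encodes the histone variant of the centromere. It averaged 20.5 ± 1.78 RPKM at 24 h with 9cisRA and 47.2 ± 4.13 RPKM at 6 h.

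PPAR target genes, most of which serve fat burning and storage, rose in all 33 tested members with 9cisRA (median 1.40), against 25 higher and 2 lower with DMSO (median 0.78). For 22 of the 33 the time change was higher with 9cisRA than with DMSO and for none was it lower (median difference 0.48). Over all tested genes 30.5% rose with 9cisRA and 10.1% had a higher time change. With atRA all 33 rose as well (median 1.685). Cyp4a10, a fatty acid hydroxylase (chromosome 4, 115518287 to 115533649), had the largest difference of all tested genes. It stood at 6.57, 5.57, 12.6 and 12.1 RPKM at 24 h with 9cisRA and at 0.170, 0.115, 0.270 and 0.329 RPKM at 6 h, and no DMSO library at either time exceeded 0.212 RPKM. Of these libraries only those at 24 h with 9cisRA reached the 1 RPKM of the filter on low values. The gene was thus tested through groups where it is high. The time change was 3.68 ± 0.25 log2 with 9cisRA and 0.28 with DMSO, a difference of 3.40 ± 0.35 (adjusted p = 0.000136). Its neighbour and near copy Cyp4a32 followed the same course at lower levels (difference 2.21 ± 0.29, or 3.79 with a pseudocount of 0.1), and reads of the pair may be split between them.

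Pdk4, the kinase that switches pyruvate dehydrogenase off, stood at 13.7, 12.9, 14.3 and 16.0 RPKM at 24 h with 9cisRA, against 4.87, 4.97, 5.29 and 5.05 RPKM at 6 h. With DMSO it stayed at 0.160 to 0.318 RPKM at 24 h and 0.243 to 0.357 RPKM at 6 h. The level with 9cisRA at 6 h was thus already above every DMSO library, and it went on rising (1.40 ± 0.075 log2, difference 1.50 ± 0.11, adjusted p = 1.08e-05). Among these groups Pdk4 reached the 1 RPKM of the filter on low values only with 9cisRA, so it was tested through groups where it is high.

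Smaller differences ran along the fat-burning chain. Carnitine palmitoyltransferase Cpt1a, which admits fatty acids to mitochondria, gave 0.53 ± 0.070 (0.34 with quantile normalization) and the trifunctional protein subunit Hadha 0.57 ± 0.056. Of 27 genes of mitochondrial fatty acid oxidation and ketogenesis, 24 rose and 1 fell with 9cisRA (median 0.78). With DMSO 23 of the 27 rose and 1 fell (median 0.44). For 13 the time change was higher than with DMSO and for 2 it was lower. Over all tested genes 10.1% had a higher and 7.90% a lower time change, so the count of lower ones was near that share. The isomerase Eci2 stood at 87.2, 84.1, 97.6 and 98.7 RPKM at 24 h with 9cisRA and at 41.9, 41.5, 46.2 and 45.3 RPKM at 6 h (difference 0.73 ± 0.069). Acat1 and Oxct1, enzymes of ketone body use, were the 2 with lower time changes (-0.30 and -0.38). The Acat1 call was lost without either of 2 libraries (-0.26 and -0.25). Of 38 peroxisome genes, 33 rose and none fell with 9cisRA (median 0.76), and 35 rose and none fell with DMSO (median 0.56). The time change was higher with 9cisRA for 11 and lower for 2. The thiolase Acaa1b rose by 2.79 ± 0.12 with 9cisRA (difference 1.00 ± 0.18).

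PPAR with RXR is known to bind a pair of AGGTCA hexamers 1 base apart. Allowing 2 mismatches in all and searching both strands, such a pair stood in the window of 6 of 26 PPAR target genes (23.1%), against 3.88% of all 9088 windows. Among 36 enterocyte markers the share was 22.2%, and the 2 lists share 2 members. The 6 genes were Acot4, Cd36, Creb3l3, Fabp1, Plin2 and Slc25a20. The windows of the 3 whose time change differed from DMSO are shown with the repeat in capitals.
Slc25a20, chr9:108661886-108662185, plus strand: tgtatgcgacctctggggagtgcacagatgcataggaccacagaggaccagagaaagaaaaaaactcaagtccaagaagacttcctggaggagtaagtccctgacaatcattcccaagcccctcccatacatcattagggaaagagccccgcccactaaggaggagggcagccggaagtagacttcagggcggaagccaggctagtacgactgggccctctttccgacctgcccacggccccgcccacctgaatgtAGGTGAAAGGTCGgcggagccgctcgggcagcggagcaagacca
Creb3l3, chr10:81092542-81092841, minus strand: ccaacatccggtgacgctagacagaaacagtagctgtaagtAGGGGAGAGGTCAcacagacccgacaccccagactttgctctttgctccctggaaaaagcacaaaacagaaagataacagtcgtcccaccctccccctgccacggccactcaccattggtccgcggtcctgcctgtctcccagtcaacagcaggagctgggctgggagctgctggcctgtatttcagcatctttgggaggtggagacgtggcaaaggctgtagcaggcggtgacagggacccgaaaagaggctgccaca
Plin2, chr4:86670010-86670309, minus strand: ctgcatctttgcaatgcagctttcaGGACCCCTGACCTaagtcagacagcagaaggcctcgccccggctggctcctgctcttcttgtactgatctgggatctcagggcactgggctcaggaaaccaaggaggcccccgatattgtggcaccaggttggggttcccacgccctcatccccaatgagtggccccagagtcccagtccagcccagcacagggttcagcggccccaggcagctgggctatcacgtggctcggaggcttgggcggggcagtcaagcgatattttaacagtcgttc

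Slc25a20, the carnitine carrier of mitochondria, stood at 111, 115, 122 and 125 RPKM at 24 h with 9cisRA and at 42.6, 41.6, 46.8 and 48.7 RPKM at 6 h, and rose by 0.67 ± 0.074 log2 more than with DMSO. Creb3l3, a transcription factor of lipid metabolism, stood at 193, 190, 265 and 238 RPKM at 24 h and at 27.9, 28.3, 36.8 and 44.0 RPKM at 6 h (difference 1.01 ± 0.13). Plin2, which coats lipid droplets, stood at 290, 285, 302 and 289 RPKM at 24 h and at 256, 241, 237 and 235 RPKM at 6 h, a small rise of 0.27 ± 0.068 that was lost with quantile normalization (-0.02) and with read-sum scaling (0.089). With DMSO it changed the other way, at 140 ± 9.15 RPKM at 24 h and 191 ± 8.32 RPKM at 6 h (difference 0.72 ± 0.097, adjusted p = 0.000637).

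FXR target genes rose at 7 of 8 tested with 9cisRA (median 1.33, against 0.76 with DMSO). For 4 the time change was higher than with DMSO and for none was it lower. Over all tested genes 30.5% rose with 9cisRA and 10.1% had a higher time change. With atRA all 8 rose (median 2.21). Fgf15, the hormone by which the ileum tells the liver to stop making bile acids, stood at 40.6, 41.5, 43.2 and 39.7 RPKM at 24 h with 9cisRA and at 23.9, 22.2, 16.5 and 17.3 RPKM at 6 h. Its means with DMSO were 4.88 ± 0.672 RPKM at 24 h and 5.46 ± 1.02 RPKM at 6 h, and the difference was 1.19 ± 0.16 (adjusted p = 0.000547). Nr0b2, a repressor of bile acid synthesis, stood at 4.03, 3.79, 5.34 and 4.41 RPKM at 24 h with 9cisRA and at 0.258, 0.466, 0.455 and 0.305 RPKM at 6 h (2.49 ± 0.13, difference 1.48 ± 0.18). The bile acid exporter subunits Slc51a and Slc51b rose by 2.07 ± 0.089 and 3.58 ± 0.24. The difference from DMSO was called for Slc51a (0.42 ± 0.13) but not for Slc51b (0.75 ± 0.33, adjusted p = 0.136). The Slc51a call was lost without either of 2 libraries (0.38 and 0.39) and with read-sum scaling (0.30), and Slc51b was called with a pseudocount of 1 (0.89).

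LXR target genes rose at 10 of 12 with 9cisRA (median 0.97, against 0.46 with DMSO and 1.005 with atRA). Apoe, an apolipoprotein, fell, and Fasn was not called. The time change was higher than with DMSO for 6 and lower for none. Shares over all tested genes were 30.5% higher with 9cisRA and 10.1% with a higher time change. Acacb, the acetyl-CoA carboxylase of mitochondria, stood at 4.93, 5.83, 7.46 and 6.35 RPKM at 24 h with 9cisRA and at 0.902, 1.10, 1.29 and 1.51 RPKM at 6 h, and no DMSO library at these times exceeded 0.221 RPKM. Among these groups the gene reached the 1 RPKM of the filter on low values only with 9cisRA. The difference was 1.94 ± 0.14 (adjusted p = 1.20e-05). The desaturase Scd1 (chromosome 19, 44394450 to 44407709) stood at 543, 481, 694 and 761 RPKM at 24 h with 9cisRA and at 96.9, 112, 108 and 124 RPKM at 6 h (difference 1.41 ± 0.14). Srebf1, which switches on fatty acid synthesis genes, gave 0.58 ± 0.15, and sterol exporters Abca1 and Abcg8 gave 0.50 ± 0.16 and 0.42 ± 0.12. Calls were lost without any 1 of 7 libraries for Abca1 (0.40 to 0.50) and of 4 for Abcg8 (0.35 to 0.38), and without 1 for Srebf1 (0.51). With quantile normalization Abcg8 (0.29) and Srebf1 (0.40) were not called, with read-sum scaling Abca1 (0.37) and Abcg8 (0.30), and with a pseudocount of 0.1 Abca1 (0.33) and Abcg8 (0.41). Counts for these lists with read-sum scaling were 18 of 33 for PPAR, 2 of 8 for FXR and 4 of 12 for LXR targets with a higher time change.

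**Figure D4:**
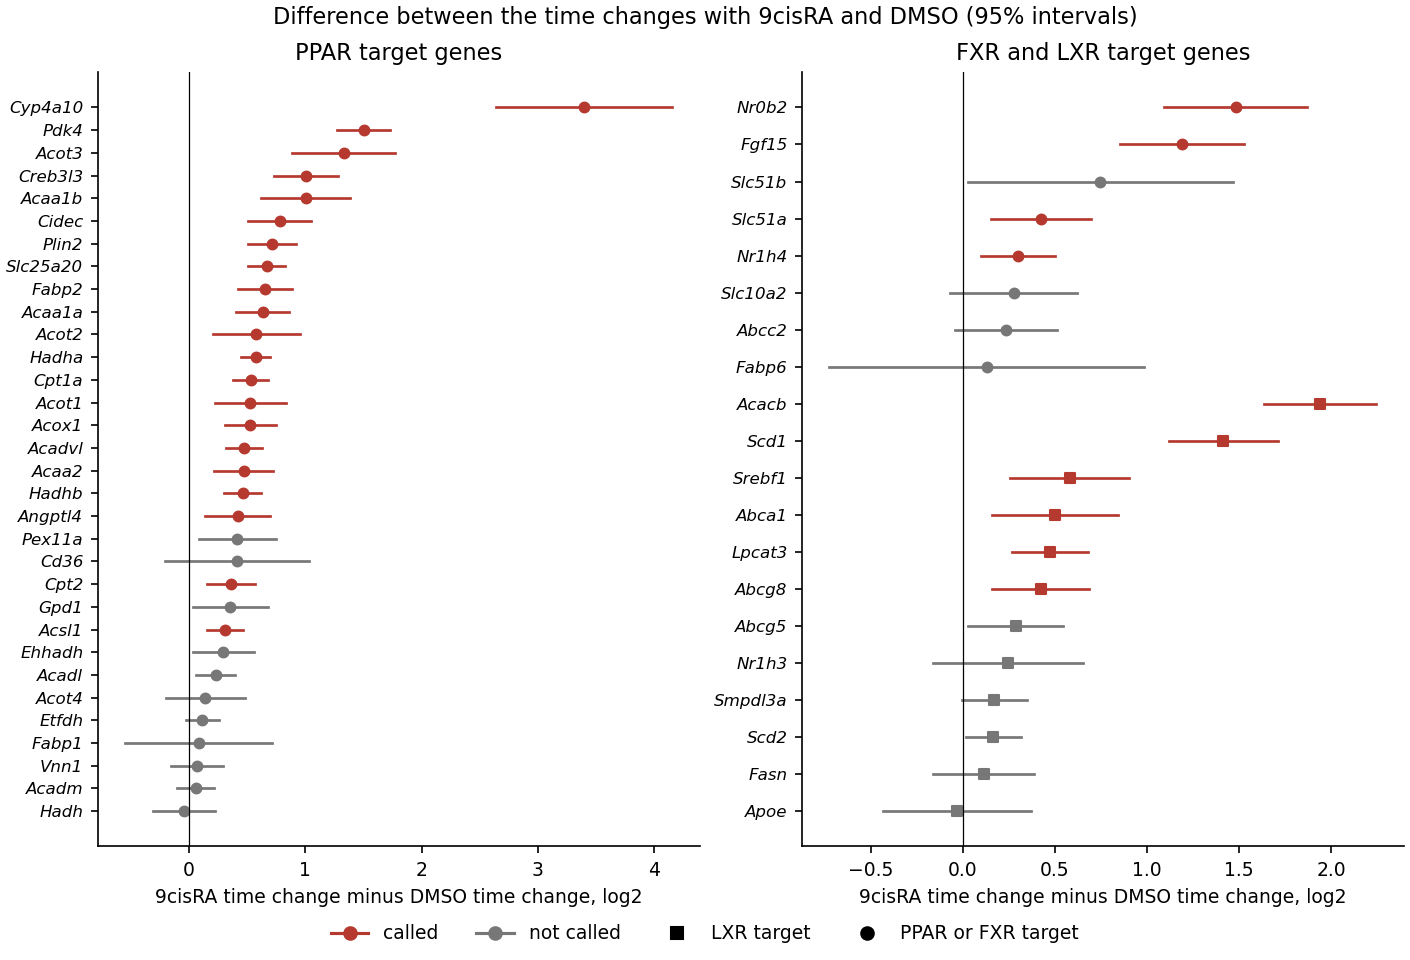
Points give the 9cisRA time change minus the DMSO time change in log2 for each tested PPAR, FXR and LXR target gene, with lines for the 95% interval, red for called differences and squares for LXR targets, and 1 PPAR target is not drawn. The called differences, 22 of 33 PPAR, 4 of 8 FXR and 6 of 12 LXR targets, all lie above 0, with Cyp4a10 at 3.40 the largest.

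Genes of retinoic acid itself gave a mixed picture. Cyp26b1, which degrades retinoic acid (chromosome 6, 84571414 to 84593908), stood at 4.70, 4.86, 7.30 and 6.21 RPKM at 24 h with 9cisRA and at 0.166, 0.219, 0.235 and 0.168 RPKM at 6 h. At 0 h it averaged 0.0600 ± 0.0380 RPKM, so nearly all of the gain came after 6 h. The rise was 3.15 ± 0.12 log2, and 2.60 ± 0.17 above that with DMSO (adjusted p = 7.08e-06). Of the 9cisRA libraries only those at 24 h reached the 1 RPKM of the filter on low values. Dhrs3, a retinal reductase, rose by 1.01 ± 0.095 but less than with DMSO (difference -0.53 ± 0.13), and the retinol saturase Retsat rose by 2.38 ± 0.18, more than with DMSO (difference 1.20 ± 0.25). Among 12 genes known to respond to retinoic acid, 6 were called higher and none lower at 24 h with 9cisRA. For 3 the time change was higher than with DMSO and for 1 it was lower. Over all tested genes 30.5% were called higher with 9cisRA. A higher time change than with DMSO was called in 10.1% of all tested genes and a lower one in 7.90%. Of 24 nuclear receptor genes, 18 rose and 1 fell, Pparg. Rxra (0.35 ± 0.082) and Rara (0.36 ± 0.088) were among the 7 with a higher time change than with DMSO, and the Rara call was lost without any 1 of 3 libraries (0.27 to 0.30) and with read-sum scaling (0.24), where Rxra was at 0.23.

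The plot of 8 genes by library shows how levels at 6 h and 24 h combined in these differences.

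**Figure D5:**
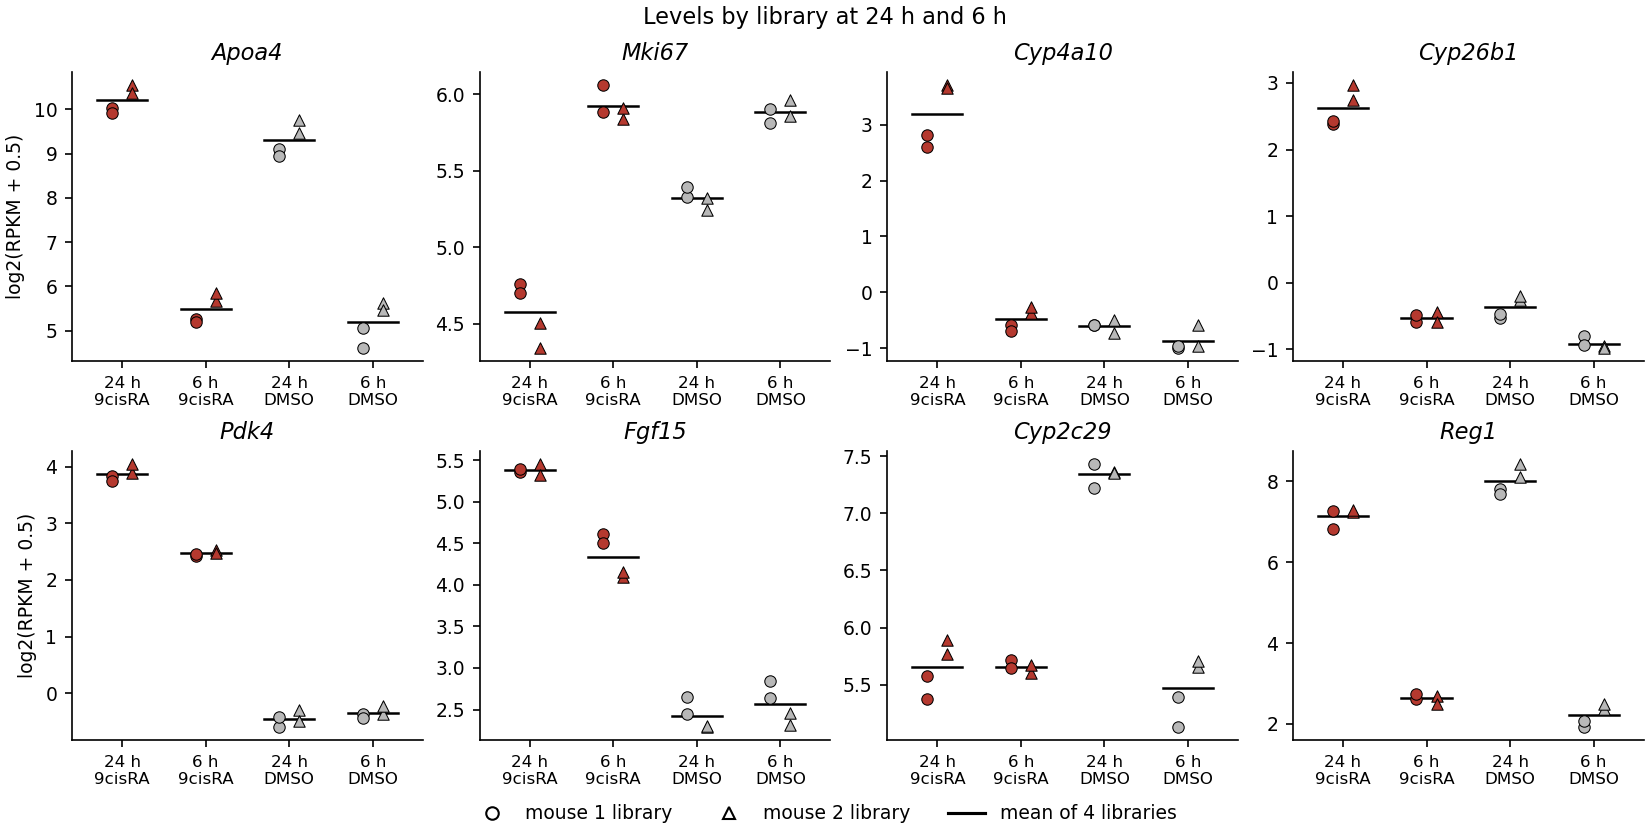
Points are single libraries, in log2(RPKM + 0.5), of mouse 1 (circles) and mouse 2 (triangles) at 24 h and 6 h with 9cisRA (red) and DMSO (grey), with bars at the mean of 4 libraries. Cyp4a10 and Cyp26b1 are high only at 24 h with 9cisRA, Pdk4 and Fgf15 are above DMSO at both times, and Cyp2c29 is high only at 24 h with DMSO.

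A smaller set rose with vehicle and not, or less, with 9cisRA. Cyp2c29, a cytochrome P450 (chromosome 19, 39287044 to 39330713), stood at 47.3, 41.1, 53.9 and 59.0 RPKM at 24 h with 9cisRA and at 52.0, 49.6, 48.1 and 50.5 RPKM at 6 h, and the groups overlapped. With DMSO it stood at 149, 172, 164 and 163 RPKM at 24 h and at 34.5, 41.5, 49.9 and 51.9 RPKM at 6 h. The difference was -1.88 ± 0.23 (adjusted p = 0.000348), and related Cyp2c genes may share reads. Ctrb1, a digestive protease precursor, had the lowest difference (-2.13 ± 0.35), with 1.23, 0.937, 0.947 and 1.08 RPKM at 24 h with 9cisRA and 0.745, 0.524, 1.10 and 0.360 RPKM at 6 h, against 6.51 ± 1.15 RPKM at 24 h with DMSO and 0.737 ± 0.398 RPKM at 6 h. The reductase Akr1c14 stayed below 0.278 RPKM with 9cisRA at both times and averaged 1.81 ± 0.321 RPKM at 24 h with DMSO (difference -1.64 ± 0.19, or -2.57 with a pseudocount of 0.1). No 9cisRA library of this gene reached the 1 RPKM of the filter on low values, so it was tested through groups where it is higher.

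Reg1 rose in both settings, to 154, 112, 150 and 155 RPKM at 24 h with 9cisRA, against 5.63, 6.17, 5.97 and 5.17 RPKM at 6 h. With DMSO its mean was 261 ± 65.1 RPKM at 24 h and 4.20 ± 0.978 RPKM at 6 h, and the difference was -1.27 ± 0.22 (adjusted p = 0.00226). The citrate transporter Slc13a2 (-1.24 ± 0.29) and the urinary protein Mup20 (-1.32 ± 0.25) likewise rose less, though Slc13a2 was not called with a pseudocount of 0.1 (-0.80, adjusted p = 0.198). The other 2 of the 8 lowest were Tprg (-1.23 ± 0.23, or -1.94 with a pseudocount of 0.1) and Snord34 (-1.27 ± 0.40). Snord34 is a small nucleolar RNA, and its reads may include some from the ribosomal protein gene that holds it. The Snord34 call was lost without any 1 of 7 libraries (-1.23 to -1.02) and with quantile normalization (-1.23).

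Besides the lipid genes above, Rab30 and Ly6g were among the 8 highest differences. Rab30, a small GTPase of the Golgi, stood at 12.9, 11.6, 16.1 and 16.3 RPKM at 24 h with 9cisRA and at 1.06, 0.844, 1.36 and 1.97 RPKM at 6 h (difference 1.49 ± 0.18). Ly6g, a membrane-anchored protein used as a neutrophil marker, stood at 36.7, 30.4, 34.9 and 30.8 RPKM at 24 h with 9cisRA and at 17.2, 15.8, 15.6 and 14.7 RPKM at 6 h. With DMSO it averaged 6.62 ± 0.596 RPKM at 24 h and 9.93 ± 1.78 RPKM at 6 h (difference 1.59 ± 0.26), and near copies in the Ly6 family may share its reads. Of a longer list of 7 leukocyte markers 3 were tested, with Lyz2 higher (0.76 ± 0.21), Csf1r lower (-0.33 ± 0.11) and Cd68 not called at 24 h. The Lyz2 call was lost without mouse 1 (0.47, adjusted p = 0.161) and the Csf1r call without mouse 2 (-0.30, adjusted p = 0.0686).

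Of the 103 genes called in opposite directions, Ly6g and 4 further genes are named here, from the 6 with the largest difference. Pdlim2, a PDZ and LIM domain protein, stood at 10.3, 10.1, 12.1 and 10.3 RPKM at 24 h with 9cisRA and at 8.01, 8.43, 8.51 and 8.48 RPKM at 6 h, against 3.88 ± 0.141 RPKM at 24 h with DMSO and 8.35 ± 0.482 RPKM at 6 h. It rose by 0.34 ± 0.090 with 9cisRA and changed by -1.02 with DMSO (difference 1.35 ± 0.13, adjusted p = 0.000107). With read-sum scaling its change with 9cisRA was not called (0.17, adjusted p = 0.114). Mxd1, a partner of Max that opposes Myc, stood at 33.9, 33.8, 35.2 and 34.1 RPKM at 24 h with 9cisRA and at 24.8, 25.0, 25.1 and 27.1 RPKM at 6 h. With DMSO it averaged 23.6 ± 1.15 RPKM at 24 h and 38.6 ± 0.676 RPKM at 6 h, so its level with 9cisRA was below DMSO at 6 h and above it at 24 h (difference 1.12 ± 0.066, adjusted p = 3.47e-06). With read-sum scaling its rise with 9cisRA was 0.24. Lynx1 (1.03 ± 0.10), of the Ly6 family, and 2010109I03Rik (0.98 ± 0.099) were the others named.

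Antigen presentation genes rose together. Of 22 genes of MHC class I and peptide loading, 20 rose and none fell with 9cisRA (median 0.86). With DMSO 19 of the 22 rose and none fell (median 0.56). The time change was higher with 9cisRA for 10 and lower for none. Over all tested genes 30.5% rose with 9cisRA and 10.1% had a higher time change. Tapbp, which holds MHC class I molecules for loading, stood at 44.8, 49.0, 51.5 and 43.2 RPKM at 24 h with 9cisRA and at 19.8, 19.2, 21.8 and 21.9 RPKM at 6 h (difference 0.62 ± 0.081, adjusted p = 0.000532). H2-D1 and H2-K1 gave 0.49 ± 0.072 and 0.45 ± 0.075, and MHC class I genes are close relatives that may share reads. Of 26 interferon response genes, 23 rose and none fell with 9cisRA (median 0.60), and 17 rose and 1 fell with DMSO (median 0.38). The time change was higher with 9cisRA for 8, among them the RNA-binding protein Ifit1 (0.82 ± 0.17) and Oasl1 (0.66 ± 0.11). Ifit1 was not called with a pseudocount of 0.1 (0.89). With read-sum scaling 4 of the 26 had a higher and 1 a lower time change.

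Immediate early genes, which answer growth signals within minutes, fell at 13 of 23 with DMSO and at 6 with 9cisRA, where 5 rose. For 7 the time change was higher with 9cisRA and for none was it lower. Over all tested genes 24.5% fell with DMSO, and with 9cisRA 30.8% fell and 30.5% rose. A higher time change with 9cisRA was called in 10.1% of all tested genes. Fos stood at 55.1, 58.7, 42.1 and 38.6 RPKM at 24 h with 9cisRA and at 74.6, 78.4, 53.5 and 56.0 RPKM at 6 h, with mouse 1 above mouse 2 at both times, and its mean with DMSO was 30.1 ± 7.60 RPKM at 24 h and 64.6 ± 13.3 RPKM at 6 h. The phosphatase Dusp5 gave the largest difference of the list, 0.85 ± 0.11. Genes of the integrated stress response and of protein folding leaned the other way: of 29 stress response genes 8 had a lower and 1 a higher time change than with DMSO, and of 24 chaperone genes of the endoplasmic reticulum 7 had a lower and none a higher one. The serine synthesis enzyme Psat1 (difference -0.35 ± 0.075), the cysteine synthesis enzyme Cth (-0.50 ± 0.089) and the chaperones Hsp90b1 (-0.45 ± 0.10) and Sdf2l1 (-0.42 ± 0.062) were among them. Cytosolic ribosomal protein genes fell at 47 of 56 with 9cisRA (median -0.28) and at 22 of 56 with DMSO (median -0.16). For 4 of the 56 the time change was lower than with DMSO, near the 7.90% of all tested genes, and for none was it higher. The 4 became 22 with quantile normalization and 26 with read-sum scaling.

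The isomers were also set side by side at the same dose and times. 9cisRA and atRA are the cis and trans forms of the same molecule. Of the genes called with 9cisRA, 85.2% were also called with atRA in the same direction. The changes with the isomers correlated at 0.971 across genes, and genes are not independent replicates. The time changes of the isomers differed in 4 genes, 0.0352% of those tested, and 617 genes had an unadjusted p below 0.05. The median 95% interval of the difference, before adjustment, reached 0.22 log2 to either side. The smallest of the 4 called differences was 0.47, and larger ones were left uncalled after adjustment. Fabp6, the bile acid binding protein of the ileum (chromosome 11, 43596040 to 43601562), had 2, 2, 5 and 5 reads at 24 h with 9cisRA and 1, 1, 4 and 2 reads at 6 h. With atRA it had 62, 55, 140 and 123 reads at 24 h and 5, 1, 0 and 0 reads at 6 h. Of these libraries and those with DMSO or at 0 h, only the 24 h atRA libraries reached the 1 RPKM of the filter on low values, so the gene was tested through the group where it is high. The fitted difference was -3.40 ± 0.40 log2, and with a pseudocount of 0.1 it was -4.72 and not called (adjusted p = 0.0916).

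The other 3 were Rnase4, Gm5485 and Mxd1. Rnase4, a secreted ribonuclease, stood at 81.0, 75.1, 76.4 and 89.6 RPKM at 24 h with 9cisRA and at 42.4, 40.8, 43.9 and 43.0 RPKM at 6 h, and averaged 112 ± 10.8 RPKM at 24 h with atRA and 39.8 ± 3.52 RPKM at 6 h (difference -0.56 ± 0.065, adjusted p = 0.00582). Gm5485, a predicted gene, rose by more with 9cisRA than with atRA (1.19 ± 0.16, adjusted p = 0.0216), with the call lost without any 1 of 4 libraries (1.04 to 1.11). The time change of Mxd1 was 0.42 ± 0.047 with 9cisRA and -0.05 with atRA (difference 0.47 ± 0.066, adjusted p = 0.0226), a call lost without 1 library (0.44). Levels were not tested between the isomers. Pdk4 averaged 14.2 ± 1.26 RPKM at 24 h with 9cisRA and 7.08 ± 0.491 RPKM with atRA, and 5.04 ± 0.179 RPKM at 6 h with 9cisRA and 1.35 ± 0.0158 RPKM with atRA. Cyp26b1 was the reverse in order, with 5.77 ± 1.40 RPKM at 24 h with 9cisRA and 11.9 ± 1.74 RPKM with atRA. The difference between the isomers' time changes was -0.63 for Pdk4 (95% interval -0.86 to -0.40, adjusted p = 0.0861) and -0.74 for Cyp26b1 (95% interval -1.11 to -0.37, adjusted p = 0.375). For Cyp4a10 it was 0.66 (95% interval -0.09 to 1.42, adjusted p = 0.953). None of the 3 was called, though Pdk4 was called with read-sum scaling (-0.66) and both Pdk4 and Cyp26b1 with libraries as separate samples, and intervals of this width do not show that the isomers act alike.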

How the data were processed

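The deposited table holds RPKM, which the authors made from TruSeq mRNA libraries. Per the submitters' processing notes, bcl2fastq 2.17, STAR 2.5.2b and the mm10 build were used; the counting step and annotation are not given in the sources used here. Whole reads could be recovered for 100% of genes (tolerance 0.05), giving 19.6 to 30.7 M reads per library. Duplicates were averaged, giving 18 values over 9 conditions and 2 mice, and log2(RPKM + 0.5) was fitted with limma 3.58.1 in R 4.3.3 for genes at 1 RPKM or more in at least 4 libraries. All conditions shared 1 fit with a variance trend (8 residual and 5.01 prior degrees of freedom) and mouse as a block, since the same animals gave every condition. Mouse differences correlated between conditions at a median of 0.441 (0.0372 to 0.662). Between 24 h and 6 h with 9cisRA they correlated at 0.212.

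The members and gene lists were chosen with earlier results of these data known. Genes were named by rank: the 12 highest and 12 lowest changes, the 8 highest and 8 lowest differences from DMSO, up to 5 each from atRA, the 6 largest opposite changes, up to 4 members of a list by p, and a fixed panel. Members named to account for counts of 5 or fewer, and Gcg, Plin3, Apoc2 and Fabp2, were chosen after their values were seen. Alternatives varied pseudocount, filter, scaling, block and libraries left out. The fit was tested on simulated data. Promoter windows are from RefSeq. 1 gene that this rule names is not reported here. The RXR antagonist samples entered the fit and are not described.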

Additional observations from a re-analysis of the deposited data

Results flagged for a closer look

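The change from 6 h to 24 h differed between 9cisRA and DMSO in 2040 genes and between 9cisRA and atRA in 4, by a test of the difference itself (limma, adjusted p below 0.05). Among genes whose values are printed, 69 differed from DMSO, and a positive value means a higher time change with 9cisRA. Differences of the lipid and bile acid genes were, in log2, Cyp4a10 3.40, Cyp4a32 2.21, Acacb 1.94, Pdk4 1.50, Nr0b2 1.48, Scd1 1.41, Fgf15 1.19, Apoc2 1.02, Creb3l3 1.01, Acaa1b 1.00, Eci2 0.73, Plin2 0.72, Slc25a20 0.67, Fabp2 0.65, Srebf1 0.58, Hadha 0.57, Plin3 0.53, Cpt1a 0.53, Abca1 0.50, Slc51a 0.42, Abcg8 0.42, Acat1 -0.30 and Oxct1 -0.38. Differences of the cell cycle genes were, in log2, Mki67 -0.79, Top2a -0.75, Tpx2 -0.68, Nek2 -0.62, Rrm1 -0.61, Rrm2 -0.59 and Mcm6 -0.55. Differences of the retinoid and receptor genes were, in log2, Cyp26b1 2.60, Retsat 1.20, Rara 0.36, Rxra 0.35 and Dhrs3 -0.53. Differences of the surface, secretory and absorptive genes were, in log2, Tmigd1 0.81, Ada 0.59, Cdhr2 0.52, Alpi 0.47, Eps8 0.42, Myo1d 0.41, Vil1 0.31, Mptx1 -0.88, Mme -1.07, Clps -1.15 and Reg1 -1.27. Differences of the immune genes were, in log2, Ly6g 1.59, Ifit1 0.82, Oasl1 0.66, Tapbp 0.62, H2-D1 0.49 and H2-K1 0.45. Differences of the other genes were, in log2, 2010109I03Rik 0.98, Akr1c14 -1.64, Cth -0.50, Ctrb1 -2.13, Cyp2c29 -1.88, Dusp5 0.85, Hsp90b1 -0.45, Lynx1 1.03, Mup20 -1.32, Mxd1 1.12, Pdlim2 1.35, Psat1 -0.35, Rab30 1.49, Sdf2l1 -0.42, Slc13a2 -1.24, Snord34 -1.27 and Tprg -1.23. Differences from atRA were Fabp6 -3.40, Rnase4 -0.56, Gm5485 1.19 and Mxd1 0.47.

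In 9cisRA groups of 4 libraries, 1 library lay far from the other 3 by Dixon's criterion in 11 of 184 gene and time combinations. Chance gives about 1 in 20 for 4 independent values. These libraries are duplicates of 2 mice and genes are not independent, so that rate does not apply here. Alpi at 24 h was highest in duplicate 1 of mouse 2 (974 RPKM, nearest 895 RPKM). Ascl2 at 6 h was lowest in duplicate 2 of mouse 2 (1.498 RPKM, nearest 2.413 RPKM). Cpt1a at 24 h was lowest in duplicate 1 of mouse 2 (153.5 RPKM, nearest 155.1 RPKM). Dusp5 at 24 h was highest in duplicate 1 of mouse 2 (39 RPKM, nearest 31.41 RPKM). Dusp5 at 6 h was highest in duplicate 2 of mouse 1 (27.96 RPKM, nearest 25.55 RPKM). Hsp90b1 at 24 h was lowest in duplicate 1 of mouse 2 (219.5 RPKM, nearest 288.5 RPKM). Mxd1 at 6 h was highest in duplicate 2 of mouse 2 (27.09 RPKM, nearest 25.06 RPKM). Pdlim2 at 24 h was highest in duplicate 1 of mouse 2 (12.12 RPKM, nearest 10.31 RPKM). Pdlim2 at 6 h was lowest in duplicate 1 of mouse 1 (8.013 RPKM, nearest 8.43 RPKM). Plin3 at 6 h was lowest in duplicate 1 of mouse 1 (71.53 RPKM, nearest 77.54 RPKM). Reg1 at 24 h was lowest in duplicate 2 of mouse 1 (112.2 RPKM, nearest 150.3 RPKM). Duplicate 1 of mouse 2 at 24 h was the library in 5 of the 11.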

How the results depend on the processing

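Genes called between 24 h and 6 h with 9cisRA numbered 6968, and 5159 to 7996 over the alternatives. The lowest count came with a mean of at least 5 RPKM, where fewer genes were tested, and the highest with read-sum scaling, a setting chosen after seeing the data. Leaving out 1 library gave 6724 to 6970. The difference from DMSO gave 2040 calls, 1663 to 2455 without 1 library, 1147 without mouse 1, 794 at an adjusted p below 0.01 and 1073 without the replicate block that pairs samples of the same mouse, all 1073 of them shared with the 2040. Without the block 6285 genes were called between 24 h and 6 h. The difference from atRA gave 4 calls, 2 with a pseudocount of 0.1, 2 with a mean of at least 5 RPKM, 20 with libraries as separate samples, 1 without the block, 2 without mouse 1, 10 without mouse 2, 2 at an adjusted p below 0.01, and 3 to 7 without 1 library (7 without duplicate 2 of mouse 1 at 24 h with atRA). The cause of these shifts was not tested. Without the block the difference from DMSO was no longer called for Abca1, Abcg8, Acat1, Alpi, Creb3l3, Cth, Dhrs3, Fabp2, Mme, Mptx1, Oxct1, Rara, Slc13a2, Slc51a, Snord34, Srebf1 and Tmigd1, and the change of Csf1r was no longer called. Without mouse 1 this held for Abca1, Acat1, Alpi, Clps, Cth, Dhrs3, Hsp90b1, Rara, Rxra, Slc51a, Snord34 and Srebf1, and without mouse 2 for Abcg8, Mptx1, Sdf2l1 and Slc51a. Of the 4 genes that differed from atRA, Gm5485, Mxd1 and Rnase4 lost their call without the block and also without mouse 1, and Gm5485 and Mxd1 without mouse 2. The rise of Plin2 with 9cisRA turned to -0.0205 with quantile normalization. Of 72 printed differences from DMSO, 23 lost their call in at least 1 alternative, and none changed sign. The number of mice, 2, limits the precision, and the duplicates of 1 culture add no independent sample.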

Other observations

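Detoxifying enzymes rose almost as a block in organoids kept with 9cisRA from 6 h to 24 h. Of 34 cytochrome P450 and other phase I enzymes, 30 rose and 2 fell (median 1.77 log2, against 1.92 with DMSO), among them Fmo5, a flavin monooxygenase, at 3.28 ± 0.12 and the carboxylesterase Ces2c at 2.66 ± 0.10. Of 30 phase II conjugation enzymes, 29 rose and none fell (median 1.32, against 1.26 with DMSO), with the glutathione transferase Mgst2 at 1.76 ± 0.054. Sugar uptake and fructose genes rose at 17 of 19 and none fell with 9cisRA (median 1.03). With DMSO 16 of the 19 rose and 1 fell (median 1.93). The time change was higher with 9cisRA for 3 and lower for none (median difference 0.01). The glucose transporter Slc2a2 stood at 30.4, 27.0, 40.8 and 41.4 RPKM at 24 h with 9cisRA, against 3.01, 2.72, 3.53 and 5.85 RPKM at 6 h (3.08 ± 0.14).

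Squamous and cornified envelope genes were mixed, with 9 lower and 6 higher of 17 tested, against 30.8% lower and 30.5% higher over all tested genes. Krt14, a basal keratin, stood at 1.53, 2.52, 1.95 and 1.85 RPKM at 24 h and at 5.51, 5.75, 5.04 and 4.98 RPKM at 6 h (-1.25 ± 0.12), while Sprr1a, a cornified envelope protein, rose by 1.85 ± 0.12. Of 21 YAP and fetal-like genes, 6 had a higher time change with 9cisRA than with DMSO and none a lower one. A higher time change was called in 10.1% of all tested genes. With read-sum scaling 2 of the 21 had a higher and 1 a lower time change. Oxidative phosphorylation subunits rose at 46 of 56 under the deposited scaling, against 7 higher and 6 lower with quantile normalization. Cholesterol synthesis genes were 13 higher and 3 lower of 26, against 4 higher and 8 lower with quantile normalization, so no direction is given for either group.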
